A study of Drosophila melanogaster with 12 samples.

Results

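The ecdysone receptor gene EcR, its partner usp, the corepressor gene Smr and 6 ecdysone response genes (Eip74EF, Eip75B, br, Eip78C, Hr4 and ftz-f1) were examined in chromatin immunoprecipitation sequencing (ChIP-seq) lists of AGO2 and RNA polymerase II (Pol II) from Drosophila Kc167 cells, a cultured line derived from embryos and labelled as female. They are 9 of the 18277 genes annotated on 7 chromosomes. EcR, usp and the response genes were taken for their place in the pathway, whereas Smr was chosen by the strength of its intronic AGO2 peak in both conditions, so the Smr peak is a description here and supports nothing. The whole set was chosen with earlier results of these data known, so counts given without Smr are a description as well. AGO2 is the Argonaute protein of RNA interference, and LaminB, encoded by Lam, is a component of the nuclear lamina. The AGO2 groups were LaminB knockdown cells, treated with double-stranded RNA against LaminB (2 ChIP and 2 input libraries), and mock-treated cells (2 ChIP libraries). Pol II (antibody 8WG16) was profiled in 2 libraries of mock-treated cells. The titles of the 4 input libraries of mock-treated cells do not say which of them served AGO2 or Pol II. AGO2 was precipitated with an antibody that the labels call Mueller. For each ChIP the authors pooled the replicates into 1 list of intervals, so no value has a replicate error, no difference between LaminB knockdown and mock could be tested against the spread between replicates, and an AGO2 peak missing from the shorter list is not shown to be lost. The lists hold no read counts, and the depth of the libraries is unknown.

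Ecdysone is the steroid hormone that drives moulting and metamorphosis in insects. EcR binds it as a heterodimer with Usp, the insect counterpart of the retinoid X receptor, and in the absence of hormone the pair recruits the corepressor SMRTER, the product of Smr. On hormone exposure, early genes such as Eip74EF, Eip75B and br encode transcription factors that in turn act on later genes, and Kc cells are a long-used model of this response. No added hormone is named in the labels of these libraries.

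Sequences under AGO2 peaks of these genes are shown for the motifs searched in them. Windows of 201 bp around the summit, the point of highest signal, of the strongest mock AGO2 peak in the body of 5 genes are given below on the plus strand of dm6. GAGAG or its reverse complement CTCTC is in capitals. These letters form the core of sites of GAGA factor, a chromatin protein with a role in Hox and heat shock gene regulation. The Smr window was chosen with the peak that brought Smr into the set, the ftz-f1 window lies under a peak that covers the start of transcripts RC and RD, the Eip75B window lies under a peak that covers the start of transcript RA, the Eip78C window is intronic, and the Eip74EF window is shown as one of those without GAGAG.
Smr, chrX:12735221-12735421: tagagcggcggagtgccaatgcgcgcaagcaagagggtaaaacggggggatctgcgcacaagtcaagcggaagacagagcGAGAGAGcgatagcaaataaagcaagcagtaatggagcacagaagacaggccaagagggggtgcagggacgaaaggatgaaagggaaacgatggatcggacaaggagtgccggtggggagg
ftz-f1, chr3L:18765765-18765965: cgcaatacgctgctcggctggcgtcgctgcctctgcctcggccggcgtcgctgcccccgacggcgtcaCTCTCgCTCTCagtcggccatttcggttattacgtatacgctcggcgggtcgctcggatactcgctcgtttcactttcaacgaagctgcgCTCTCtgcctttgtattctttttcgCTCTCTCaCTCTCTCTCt
Eip75B, chr3L:17971194-17971394: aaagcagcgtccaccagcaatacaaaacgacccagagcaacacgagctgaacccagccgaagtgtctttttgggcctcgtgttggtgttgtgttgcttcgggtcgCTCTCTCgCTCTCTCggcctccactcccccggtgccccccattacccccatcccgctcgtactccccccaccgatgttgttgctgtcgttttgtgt
Eip78C, chr3L:21253516-21253716: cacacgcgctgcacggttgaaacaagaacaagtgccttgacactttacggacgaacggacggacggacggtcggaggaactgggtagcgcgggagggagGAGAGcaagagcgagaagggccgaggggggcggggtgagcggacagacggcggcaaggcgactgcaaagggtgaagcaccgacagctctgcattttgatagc
Eip74EF, chr3L:17578163-17578363: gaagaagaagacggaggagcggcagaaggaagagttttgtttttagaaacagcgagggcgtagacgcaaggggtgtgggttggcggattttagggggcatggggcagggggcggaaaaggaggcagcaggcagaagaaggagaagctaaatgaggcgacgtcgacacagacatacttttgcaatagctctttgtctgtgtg

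GAGAG, overlapping copies included, occurred 2 times in the Smr window, 8 times in that of ftz-f1, 4 times in that of Eip75B, 1 time in that of Eip78C and 0 times in that of Eip74EF. In the LaminB knockdown list, 19 of the 25 peaks in the gene bodies (76.0%) had GAGAG on either strand within their 201 bp summit window, and 519 of all 761 knockdown peaks (68.2%) did. In the mock list, 1678 of all 4201 peaks (39.9%) had it. Of the 1130 mock peaks with a summit in genes of 20 kb or longer, 564 (49.9%) did. In the bodies of the ecdysone genes, 50 of the 71 mock peaks had it (70.4%). Among peaks with an intronic summit, which most of these were, GAGAG was found in 41 of 56 mock peaks of the ecdysone genes (73.2%), against 56.7% of the whole mock list, and in 17 of 22 knockdown peaks (77.3%), against 69.9% of the whole knockdown list. Mock peaks of the ecdysone genes that overlapped a knockdown peak carried it in 16 of 21 cases (76.2%), and those that did not in 34 of 50 (68.0%). Over the whole mock list these shares were 70.4% for the shared peaks and 34.5% for the others. Windows of the same length around the 23694 annotated transcription start sites (TSSs) held GAGAG in 24.3% of cases. The letters AGGTCA, the half-site of nuclear receptors, were found in 3 of 25 knockdown windows (12%, against 3.55% of the whole list) and in 7 of 71 mock windows (9.86%, against 4.69%), while TSS windows held them in 3.43%. An inverted repeat of AGGTCA with 1 base between the copies, the textbook form of an ecdysone response element in its perfect spelling, was found in 0 windows of either list. TATCGATA, the core of DREF sites near housekeeping promoters, was found in 0 windows of the ecdysone genes. It was as rare in the whole lists, at 0.131% of knockdown and 0.547% of mock windows, and stood in 5.43% of TSS windows. The motif counts of the ecdysone genes include the 4 knockdown and 9 mock peaks in the body of Smr, and were not computed without them. A match is a description of letters and not a bound site.

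AGO2 intervals were found in or within 10 kb of nearly all of these genes in both conditions. In the gene body plus 10 kb on each side, the LaminB knockdown AGO2 list had an interval at 8 of the 9 genes (br had none), against 11.9% of all genes. The mock AGO2 list had one at 9 of 9, against 55.0% of all genes, and the mock Pol II list at 9 of 9, against 73.4%. The knockdown interval of usp lay 7721 bp away in an intron of CG4313, and with a flank of 5 kb the knockdown count was 7. Within the bodies the counts were 7 of 9 for LaminB knockdown AGO2 (3.21% of all genes), 9 of 9 for mock AGO2 (17.6%) and 9 of 9 for mock Pol II (40.8%). Without Smr, whose AGO2 peak was the reason for its choice, the knockdown AGO2 counts were 7 of 8 in the window and 6 of 8 in the body, and mock AGO2 had 8 of 8 in each. Long genes catch more intervals by their length, and 8 of the 9 genes exceed 20 kb. These 8 are 39.9 to 113.7 kb long, so the background of 1046 genes of 20 kb or longer also holds shorter ones. In that background, an interval in the body was found in 22.5% for LaminB knockdown AGO2, 49.0% for mock AGO2 and 67.7% for mock Pol II. The ecdysone genes had one in 7, 8 and 8 of 8. Without Smr these were 6, 7 and 7 of 7. At a TSS, LaminB knockdown AGO2 was found in 5 of 9 genes (1.72% of all genes), mock AGO2 in 8 of 9 (8.87%) and Pol II in 9 of 9 (37.1%). The 9 genes have 36 start positions, against 23694 for all 18277 genes, and more starts give more chances of an overlap. Smr had no AGO2 peak at a TSS. The order of the AGO2 counts at a TSS rested on the length of the lists. With the mock list limited to its 761 highest-ranked peaks, knockdown AGO2 lay at a TSS in 5 genes and mock AGO2 in 2. With that shorter list, mock AGO2 lay in the window of 9 genes, against 8 for the knockdown. It lay in the body of 7 genes, against 7 for the knockdown.

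The windows of the 9 genes cover 744 kb, or 0.541% of the 7 chromosomes. They held 31 of the 761 LaminB knockdown AGO2 peaks (4.07%), 90 of the 4201 mock AGO2 peaks (2.14%) and 44 of the 5905 mock Pol II domains (0.745%). Of the 761 mock peaks with the highest −log10 p, a list as long as that of the knockdown, 25 (3.29%) lay in these windows. Without Smr, 24 knockdown and 74 mock AGO2 peaks were left. The intervals nearest to the 10 kb limit were all beside Smr for AGO2: a knockdown peak at 9836 bp and a mock peak at 9897 bp were inside, and a knockdown peak at 12861 bp and a mock peak at 11019 bp were outside.

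**Figure D1:**
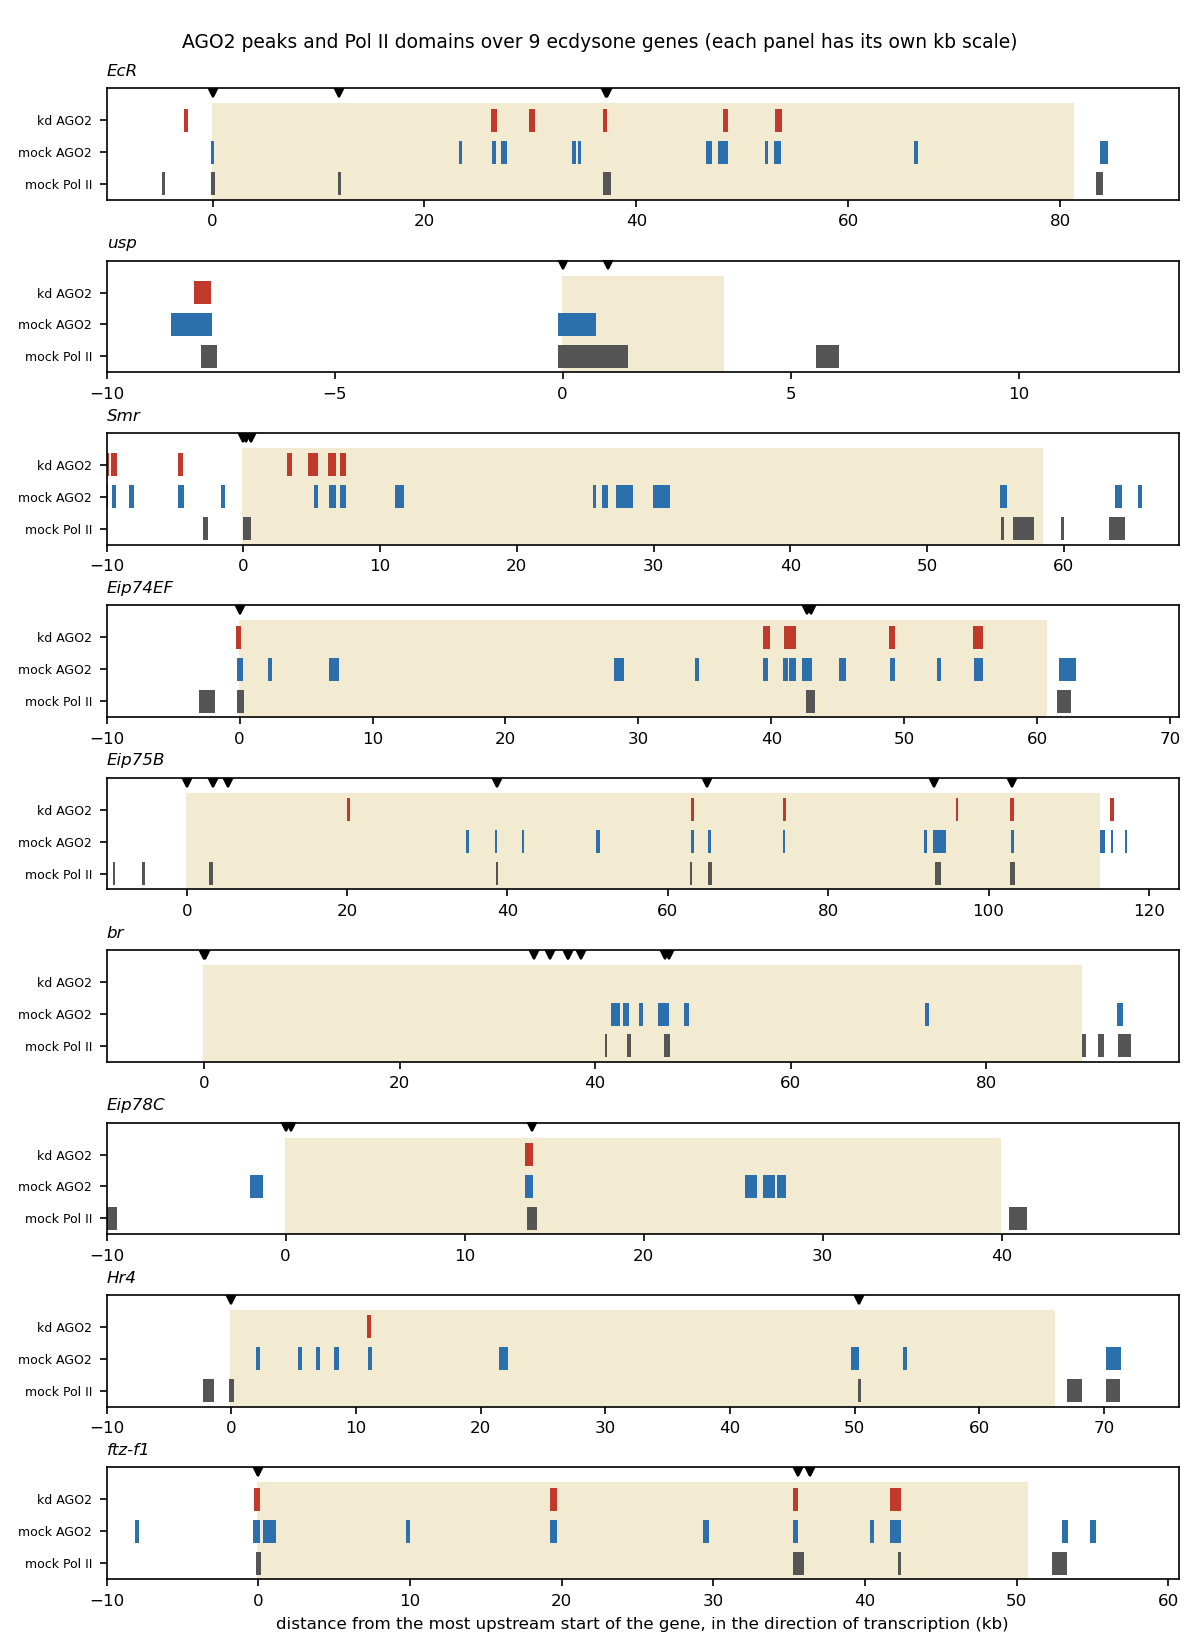
Positions of LaminB knockdown AGO2 peaks (upper row of each panel), mock AGO2 peaks (middle row) and mock Pol II domains (lower row) along the 9 genes. The horizontal axis is the distance from the most upstream start in kb, shading marks the gene body, triangles mark annotated TSSs, and each panel extends 10 kb past the gene. The 4 knockdown peaks in the body of Smr lie together in 1 intron, whereas br has 6 mock peaks in its body and no knockdown peak.

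EcR (FBgn0000546, 2R:6087873-6169087, minus strand, 81.2 kb) encodes the hormone receptor itself. LaminB knockdown AGO2 had 5 peaks in its body, with −log10 p of 31.2, 28.6, 24.1, 41.5 and 21.7 in the direction of transcription. Here −log10 p is the peak caller's own measure of confidence for 1 peak, and fold enrichment is its ratio of ChIP signal to background. Mock AGO2 had 12 peaks, with −log10 p of 17.6, 17.0, 20.6, 62.4, 27.7, 17.9, 17.7, 15.8, 58.2, 18.3, 57.2 and 16.5 in the same order. Of the 12 mock summits, 11 were intronic. Pairs of overlapping peaks were found at 3 sites. At 2R:6120405-6120863 the knockdown peak had a −log10 p of 41.5 (rank 75 of 761), and the mock peak over it had 58.2 (rank 171 of 4201). At 2R:6115340-6115956 the knockdown value was 21.7 (rank 613) and the mock value 57.2 (rank 178). The strongest mock peak of the gene (2R:6141302-6141866, 62.4, rank 128) was not in the knockdown list, which had a peak 411 bp away. That neighbouring knockdown peak, 2R:6142277-6142839 (31.2), formed the third pair, with a separate mock peak of 20.6 (rank 2311). The knockdown peak had its summit on tRNA:Lys-CTT-1-1, a tRNA gene inside an EcR intron. The mock summit of this pair was 10 bp away. Reads that map equally well to other tRNA copies are removed by the mapping-quality filter. The effect on either peak of this pair was not examined, so both heights are uncertain.

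The starts of EcR differed in their AGO2 intervals while Pol II covered all 4 of them. A knockdown peak (24.1) lay over the start of transcripts RB and RC, and the nearest mock peak to that start was 2425 bp away. A mock peak (17.6, rank 3235) lay over the most upstream start, that of RA, and the nearest knockdown peak was 2320 bp upstream of it, at 2R:6171407-6171823. This upstream peak was in the knockdown list only, at a −log10 p of 36.3, and was enriched 4.92-fold, the 49th highest fold of that list. No AGO2 peak covered the starts of RG or of RD and RE.

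The partner gene usp (FBgn0003964, X:2038798-2042311, minus strand, 3.5 kb) was the one short gene of the set. LaminB knockdown AGO2 had 0 peaks in its body, and mock AGO2 had 1 (X:2041583-2042413, −log10 p 17.0, rank 3471), which covered the RB start. A single Pol II domain of 1543 bp covered both starts and 40.8% of the body. The 5′ end of usp is shared with Actn and CG4313, so this peak cannot be assigned to usp alone. The knockdown peak in the window (21.3) lay 7721 bp away in an intron of CG4313, together with a mock peak of 35.0.

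The corepressor gene Smr (FBgn0265523, X:12684203-12742618, minus strand, 58.4 kb) was selected on its AGO2 peak. In LaminB knockdown cells this peak, X:12735084-12735567, reached a −log10 p of 131 and was enriched 10.5-fold, rank 2 by −log10 p and rank 1 by fold among the 761 peaks. In mock cells the peak X:12735106-12735543 reached a −log10 p of 98.8 and was enriched 5.79-fold, rank 17 by −log10 p and rank 76 by fold among the 4201 peaks. Its standing in the mock list thus depended on the measure used. The summits were 9 bp apart in an intron of 9.05 kb (X:12732401-12741448), 6.74 kb downstream of the nearest start in the knockdown list, and no Pol II domain overlapped either peak.

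The same intron held the other 3 knockdown peaks of Smr. They had −log10 p of 32.9, 28.1 and 21.1, and the mock peaks paired with the first and second had 60.4 and 25.0. The third (X:12739087-12739397) was in the knockdown list only, 1662 bp from the nearest mock peak. The mock list had 6 further peaks downstream, with −log10 p of 42.1, 22.8, 39.9, 19.8, 21.2 and 15.5 in the direction of transcription, and none of these 6 was paired. Of the 9 mock summits in Smr, 5 were intronic, 3 were in coding sequence and 1 was in the 3′ UTR. AGO2 peaks were absent from all 3 starts of Smr in both lists, and the nearest mock peak was 1366 bp from the RD start. Pol II covered the starts of RD and of RF and RG, and ended 1 bp short of that of RE. Upstream of Smr, a knockdown peak in the long noncoding RNA genes Vinr and CR44619 (X:12751878-12752288) had a −log10 p of 61.4 and rank 18, and the mock peak over it had 30.8 and rank 963.

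Genes were ranked by likeness to Smr, as the summed distance in percentile rank by −log10 p of their strongest such body peak from that of Smr over the 2 AGO2 lists. Among 255 genes with a body summit more than 500 bp from their own starts in both lists, the closest were Atpalpha (distance 0.31 percentile points), otp (0.466), kirre (0.512), w (0.512) and Lam (0.764). They are alike in rank only. A Pol II domain overlapped the knockdown peaks of Atpalpha, kirre and w, and those of otp, w and Lam had their summits in coding sequence. In kirre the knockdown and mock peaks were at different sites. The gene w lies inside an intron of kirre, and the mock peak X:2789853-2793308 counted for both. Lam is the target of the knockdown, and its level was not measured in these lists.

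Eip74EF (FBgn0000567, 3L:17558672-17619325, minus strand, 60.7 kb) encodes an ETS-domain transcription factor. In LaminB knockdown cells its body held 5 AGO2 peaks, with −log10 p of 27.9, 20.3, 26.1, 37.1 and 26.1 in the direction of transcription, and each overlapped a mock peak. Mock AGO2 had 13 peaks, with −log10 p of 21.1, 20.5, 15.7, 38.3, 28.6, 24.6, 41.3, 35.6, 17.5, 16.8, 38.1, 17.3 and 27.6. This was the 6th highest number of mock peaks in any gene body, and 6 of the 13 were paired with a knockdown peak. At the upstream start, shared by RA, RC and RE, both lists had a peak: the knockdown one had a −log10 p of 27.9 and a fold of 4.38, the mock one 21.1 and 3.12. A mock peak of 17.5 covered the internal starts RD and RB, where the knockdown list had none. Pol II covered all 3 starts.

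Eip75B (FBgn0000568, 3L:17950953-18064696, minus strand, 113.7 kb) encodes a haem-binding nuclear receptor and has 7 annotated start positions. The LaminB knockdown list placed 5 AGO2 peaks in its body, with −log10 p of 20.3, 36.3, 34.6, 20.0 and 36.1 in the direction of transcription. Mock AGO2 had 10, with −log10 p of 24.7, 20.1, 16.2, 17.7, 35.3, 27.6, 35.0, 22.1, 52.7 and 33.8. The 3 stronger knockdown peaks were paired with mock peaks of 35.3, 35.0 and 33.8, and the 2 weaker ones were in the knockdown list only. All 3 lists had an interval at the RD start. Mock AGO2 and Pol II covered the RG start, Pol II alone covered that of RE, and the RB, RC and RF starts had no interval of any list. The RC start was 1627 bp from a knockdown AGO2 peak, 131 bp from a mock AGO2 peak and 113 bp from a Pol II domain. The strongest mock peak (3L:17969995-17971569, 1575 bp wide, rank 238) covered the RA start, 30 bp beyond the edge of a Pol II domain, and was not in the knockdown list.

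The gene br (FBgn0283451, X:1575132-1664869, plus strand, 89.7 kb) encodes the BTB zinc finger proteins of the Broad complex. No LaminB knockdown AGO2 peak lay in its window, and the nearest was 179 kb from the body. Mock AGO2 had 6 peaks in the body, with −log10 p of 26.4, 36.6, 19.8, 28.2, 24.4 and 30.1 in the direction of transcription. The first 4 of these had their summits where Mur2B overlaps br. The peak of 28.2 covered the RS start, where a Pol II domain was also found, and Pol II covered the RM start as well. The start used by 8 of the 16 annotated transcripts had no interval in any list, with the nearest Pol II domain 3820 bp away.

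Eip78C (FBgn0004865, 3L:21226609-21266503, plus strand, 39.9 kb), which encodes a nuclear receptor, had 1 LaminB knockdown AGO2 peak, of −log10 p 25.1, at the RB start. Mock AGO2 had 4 peaks in the body, with −log10 p of 25.1, 20.9, 81.6 and 26.5. The first of these lay over the RB start as well, which was also the one start of the gene under a Pol II domain. The strongest, 3L:21253278-21253921, was intronic, ranked 47 by −log10 p and 11 by fold (7.10) in mock, and had no counterpart in the knockdown list within 12867 bp. Hr4 (FBgn0264562, X:1941940-2007956, plus strand, 66.0 kb), also a nuclear receptor gene, had 1 knockdown peak of 22.2, paired with a mock peak of 28.7 in an intron. Its 8 mock peaks had −log10 p of 32.0, 26.8, 17.5, 17.9, 28.7, 20.8, 22.7 and 19.0, and all 8 summits were intronic. Pol II covered both starts of Hr4, and mock AGO2 covered that of RE and RF.

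The competence factor gene ftz-f1 (FBgn0001078, 3L:18750607-18801309, minus strand, 50.7 kb) encodes a nuclear receptor that prepares prepupal tissue for a later hormone pulse. Its body held 4 LaminB knockdown AGO2 peaks, with −log10 p of 34.1, 21.9, 39.2 and 31.3, and all 4 were paired. Mock AGO2 had 8, with −log10 p of 42.8, 38.1, 27.0, 38.5, 17.4, 43.2, 25.4 and 37.9. At the RB start the knockdown peak had 34.1 and the mock peak 42.8. At the start of RC and RD, under the peak whose summit window is printed above, the knockdown peak had 39.2 and the mock peak 43.2. Pol II covered both of these starts, and the RA start had no interval. The long noncoding RNA gene CR45939 overlaps the gene, and the pair with 21.9 in the knockdown and 38.5 in mock had its summits where both lie.

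**Figure D2:**
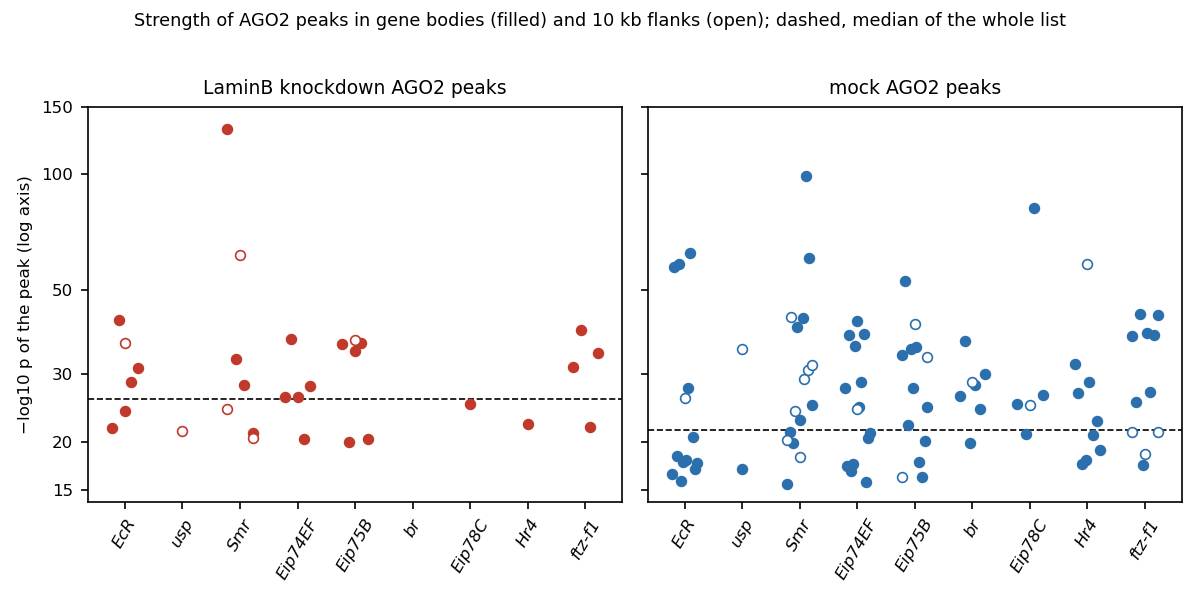
Peak caller −log10 p (log axis) of each AGO2 peak in the body (filled) or the 10 kb flanks (open) of the 9 genes, for LaminB knockdown at the left and mock at the right. Dashed lines mark the median of each whole list, 25.9 in the knockdown and 21.4 in mock. The highest point in each panel is the Smr peak that brought this gene into the set, and Eip78C has the next highest in mock at 81.6.

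The 9 genes have 36 annotated start positions, and AGO2 and Pol II were read at each. A LaminB knockdown AGO2 peak covered 6 of them (16.7%), against 1.44% of all 23694 TSS positions, a mock AGO2 peak 13 (36.1%, against 8.13%) and a Pol II domain 21 (58.3%, against 35.7%). Pol II was found at all 6 starts with a knockdown AGO2 peak and at 12 of the 13 with a mock AGO2 peak, the exception being the RA start of Eip75B. Of the 21 starts under Pol II, 6 had a knockdown AGO2 peak (28.6%, against 3.48% of all 8466 starts under Pol II) and 12 had a mock AGO2 peak (57.1%, against 20.2%). Starts of 1 gene are not independent, and neighbouring starts can lie under the same interval. Pol II was not analysed here in LaminB knockdown cells.

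**Figure D3:**
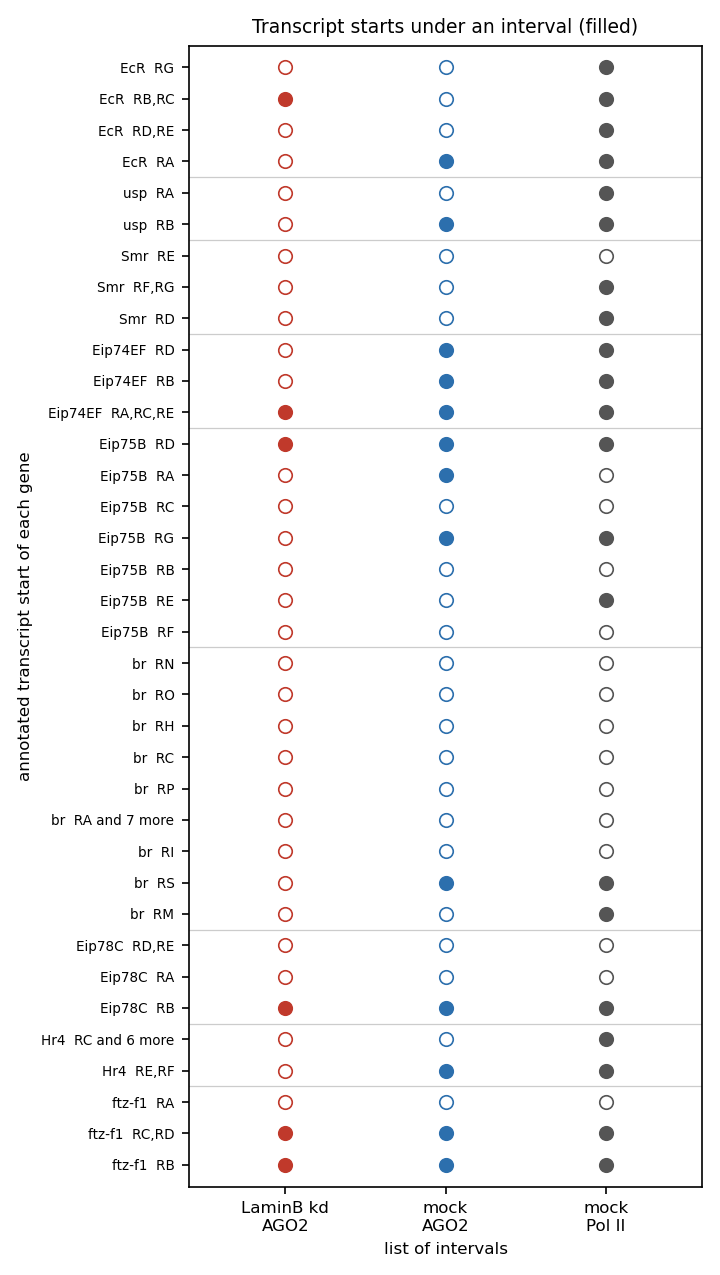
Annotated TSSs of the 9 genes (rows, with transcript names) and whether an interval of LaminB knockdown AGO2, mock AGO2 or mock Pol II (columns) covered them by at least 1 bp. Filled circles mark a covered start. The 6 filled knockdown circles belong to EcR, Eip74EF, Eip75B, Eip78C and ftz-f1, each beside a filled Pol II circle, and Smr has no filled AGO2 circle.

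Most AGO2 peaks of these genes nevertheless lay away from starts and from Pol II. The summit was more than 500 bp from any TSS in 18 of 25 knockdown peaks in the bodies (72.0%) and in 54 of 71 mock peaks (76.1%). In the whole lists these shares were 50.9% in the knockdown and 43.7% in mock. Among peaks with a summit in genes of 20 kb or longer they were 62.5% and 62.0%. Peaks of the 9 genes only had to overlap the body, and 2 knockdown and 2 mock ones had an intergenic summit. A mock Pol II domain overlapped 8 of the 25 knockdown peaks (32.0%), against 45.8% in long genes and 56.1% of the whole list. For mock peaks it was 17 of 71 (23.9%), against 43.4% in long genes and 63.0% of the whole list. The summit was intronic in 22 of 25 knockdown peaks (88.0%, against 78.9% in long genes and 52.0% of the list) and in 56 of 71 mock peaks (78.9%, against 59.7% and 27.8%). Without Smr, Pol II overlapped 38.1% of the knockdown and 25.8% of the mock peaks, and the summit was intronic in 85.7% and 82.3%. The share of summits more than 500 bp from any TSS was not computed without Smr. Pol II domains covered a median of 1.71% of the bodies of the 9 genes, from 0.683% in Hr4 to 40.8% in the short gene usp. The median was 1.43% over the 708 genes of 20 kb or longer that had a domain, and 15.9% over all 7459 genes with one.

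**Figure D4:**
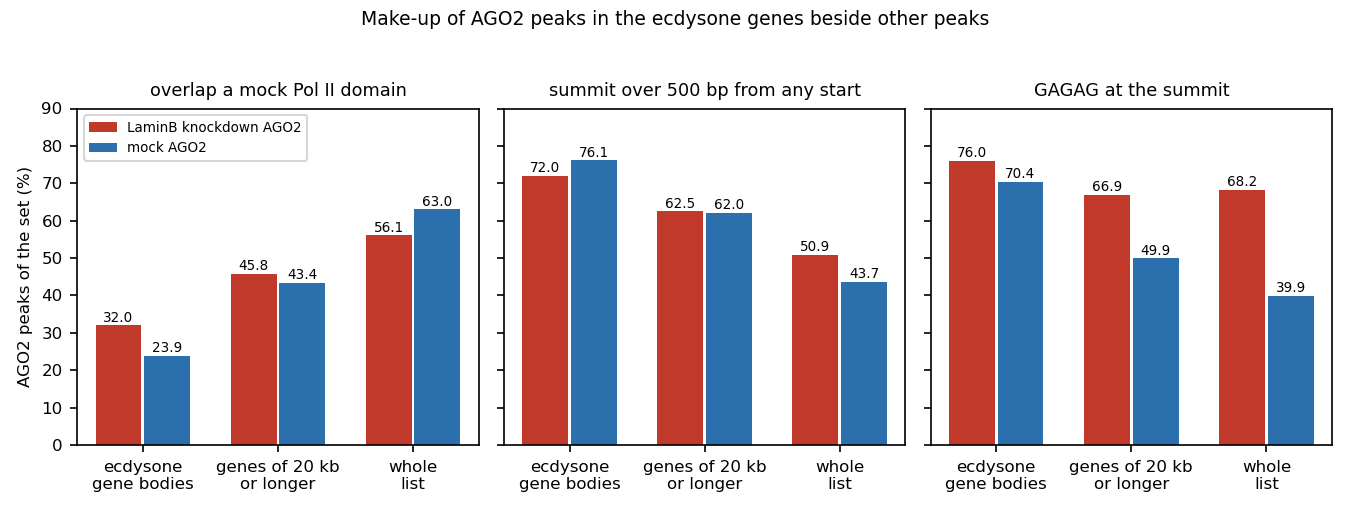
Percent of AGO2 peaks that overlapped a mock Pol II domain, had a summit more than 500 bp from any TSS, or had GAGAG within the 201 bp summit window, for LaminB knockdown (red, left bar) and mock (blue, right bar). Sets are peaks overlapping the bodies of the 9 ecdysone genes, peaks with a summit in genes of 20 kb or longer, and the whole list. Pol II overlap was 32.0% in the knockdown and 23.9% in mock for the ecdysone genes, below the 56.1% and 63.0% of the whole lists.

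The number of mock peaks was high for the length of these genes. Mock AGO2 had 2.14 peaks per 10 kb of body in Eip74EF, 1.58 in ftz-f1, 1.54 in Smr, 1.48 in EcR, 1.21 in Hr4, 1.00 in Eip78C, 0.879 in Eip75B and 0.669 in br. Of the 1046 genes of 20 kb or longer, 98.4% had a lower density than Eip74EF, and 86.3% had a lower one than br. In this background 51.0% of the genes had no mock AGO2 peak, and 708 had a Pol II domain in the body, as all 8 longer ecdysone genes did. LaminB knockdown AGO2 had between 0.151 per 10 kb in Hr4 and 0.824 in Eip74EF where it had any, with Eip74EF above 97.4% of long genes and Hr4 above 81.5%. Among the 8 longer genes Pol II domains were less dense, at 0.251 per 10 kb in Eip78C (above 53.3% of long genes) to 0.592 in ftz-f1 (above 86.4%). By number of mock peaks in the body, EcR was 8th, Eip75B 11th, Smr 16th, Hr4 and ftz-f1 both 23rd, br 41st and Eip78C 91st among the 3223 genes with any.

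**Figure D5:**
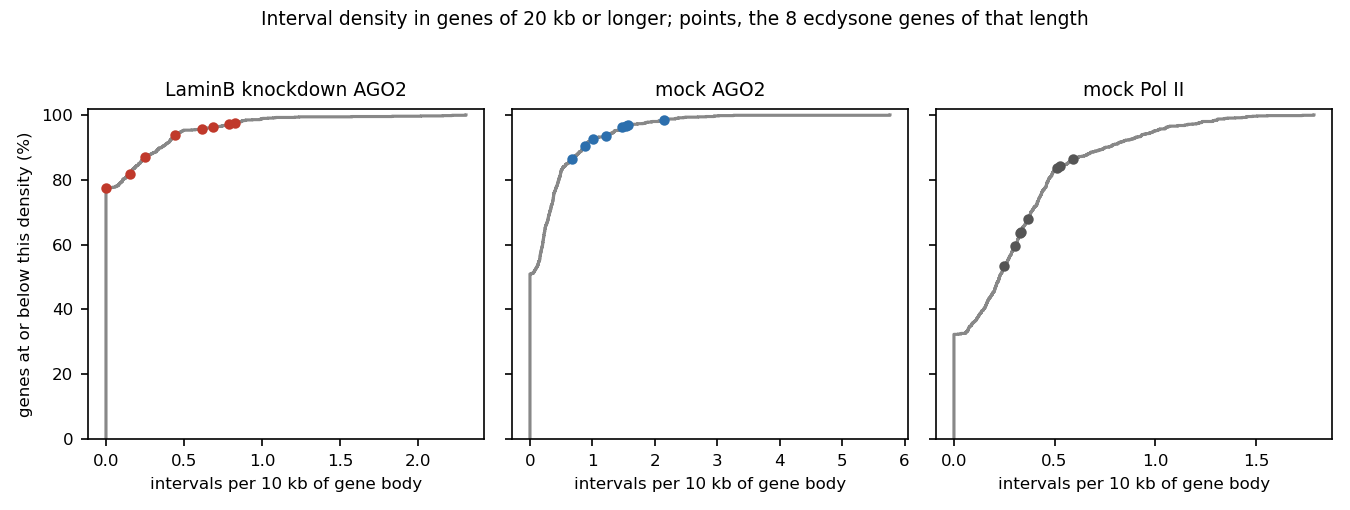
Cumulative share (%) of the 1046 genes of 20 kb or longer at or below a given number of intervals per 10 kb of gene body, for LaminB knockdown AGO2, mock AGO2 and mock Pol II. Points are the 8 ecdysone genes of that length. In mock AGO2 the lowest point is br at 0.669 per 10 kb and the highest is Eip74EF at 2.14.

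The mock peaks of these genes were compared with the knockdown list. Of the 71 mock peaks in the bodies, 21 overlapped a knockdown peak (29.6%), against 15.2% of the whole mock list. Among mock peaks with a summit in genes of 20 kb or longer the share was 26.0%. Without Smr it was 18 of 62 (29.0%). The share was higher among the stronger peaks. Among peaks in the stronger 50% of the mock list, 19 of 43 were paired (44.2%, against 38.0% in long genes and 25.4% of the list), and among the weaker ones 2 of 28 (7.14%, against 10.5% and 4.95%). Among intronic peaks without Pol II, 14 of 48 were paired in the ecdysone genes (29.2%), 29.6% in long genes and 29.3% over the whole list. In the other direction, 20 of the 25 knockdown peaks overlapped a mock peak (80.0%, against 83.8% of the list), and the 5 that did not lay in EcR (2), Eip75B (2) and Smr (1). The share of mock peaks that were paired ran from 6 of 13 in Eip74EF and 4 of 8 in ftz-f1 to 3 of 12 in EcR, 1 of 8 in Hr4 and 0 of 6 in br.

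Within the 21 pairs of overlapping peaks in the bodies, the knockdown fold enrichment was above the mock one in 13, with a median ratio of 1.04. Without Smr it was above in 11 of 18, with the same median of 1.04. Over the 640 pairs of the whole lists it was above in 273, with a median ratio of 0.937. Outside Smr the ratio was highest at the upstream start of Eip74EF (1.41) and lowest at the EcR peak of knockdown rank 613 (0.545). At the Smr peak, chosen for its strength, it was 1.81. Fold enrichment depends on depth and on the input used, so these ratios compare the lists and not the amount of AGO2.

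Other genes of the pathway were read from 3 lists. Of 16 matched genes of ecdysteroid synthesis and transport, 1 had a LaminB knockdown AGO2 peak in the body and 4 had a mock one. The strongest was in mld, which encodes a zinc finger protein needed for ecdysone synthesis, at a −log10 p of 56.5 in the knockdown (rank 29) and 95.8 in mock (rank 22). Of 19 receptor partners and coregulators, 3 had a knockdown peak and 11 a mock peak in the body, while Pol II was at a TSS of 16 (against 37.1% of all genes). The 5 with the highest mock −log10 p were Sin3A, gce, bon, Chd64 and crc. Sin3A, a corepressor scaffold, had 36.9 in the knockdown and 71.2 in mock. The juvenile hormone receptor gene gce had 31.3 in the knockdown and 66.9 in mock, at different sites. In bon, which encodes a TIF1-type cofactor, and in Chd64 the mock peaks of 36.2 and 35.8 had no knockdown peak in the gene. The strongest peak of crc, the fly ATF4, had 51.0 in the knockdown and 31.4 in mock. Of 35 other hormone response genes, 9 had a knockdown peak and 11 a mock peak in the body. Hr39, a nuclear receptor gene related to ftz-f1, had 67.3 in the knockdown (rank 13) and 88.1 in mock (rank 35). Kr-h1, the juvenile hormone response gene, had 22.3 in the knockdown (rank 576) and 120 in mock (rank 4). Blimp-1, a repressor that sets the timing of ftz-f1 expression, had a peak in the knockdown list (rank 530) and none in mock, and is named after its values were seen. The background over all genes for an AGO2 peak in the body was 3.21% in the knockdown and 17.6% in mock, as given above.

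As a check of the cell label, Pol II domains were read at 10 marker genes of hemocytes, the blood cells that Kc167 cells resemble. A domain lay at a TSS of 8, against 37.1% of all genes, and NimC1 and PPO1 had none. The lists hold no RNA level, so neither the knockdown of Lam nor the expression of the ecdysone genes could be read from them.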

How the data were processed

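The AGO2 and Pol II ChIP-seq reads were processed by the authors on dm6 with cutadapt 1.10, Bowtie2 2.2.8, SAMtools 1.3.1, Picard 2.5.0, MACS2 2.1.1.20160309 and bedtools 2.25.0, per the submitters' processing notes. AGO2 peaks were called on pooled replicates against pooled input and ranked by p-value, and the top was kept, its length set by the irreproducible discovery rate between pseudoreplicates. That length depends on depth. Pol II domains were called in broad mode and merged, with positions only. Reads in repeats were lost to the mapping-quality filter. The deposited AGO2 lists give a fold enrichment (a ratio of ChIP to background), a −log10 p and a summit for each peak. The deposited score column, 10 times the −log10 p rounded down, added nothing.

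Gene bodies and TSSs came from Ensembl 115 (build 6.54). An overlap was at least 1 bp, the flank 10 kb, and a summit took 1 feature in the order coding sequence, UTR, noncoding exon, intron, intergenic. For shares of peaks, a peak belonged to a member body by overlap and to genes of 20 kb or longer by a summit inside. Gene counts and densities used overlap for both. Sequences came from the RefSeq copy of the same assembly. The members and lists were chosen with earlier results of these data known. Named were all 9 members with each AGO2 peak of the body, genes among the top 5 of each pathway list by mock −log10 p, Blimp-1, which was added after its values were seen, and the 5 genes most like Smr. Pathway symbols were matched by name or RefSeq synonym (16 of 17, 19 of 19 and 35 of 37). Counts were described beside all genes and genes of 20 kb or longer, with no test, since each condition is 1 list. Peak counting was tested on simulated data. Python 3.11.15, numpy 2.4.6, pandas 2.3.3 and matplotlib 3.10.9 were used. Alternatives were other flanks, overlaps, TSS definitions and shorter lists.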

Additional observations from a re-analysis of the deposited data

How the results depend on the processing

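The 17 values for the 9 genes were recomputed under 55 alternatives, and 44 stayed within 1.5 times the reported value. In the stronger 50% of each list (the wider 50% of Pol II domains), 5 genes had a LaminB knockdown AGO2 peak in the window, 3 had one at a TSS, mock AGO2 lay at a TSS in 5, and Pol II did so in 5. With the summit required within 100 bp of a TSS, 3 genes had a knockdown and 5 a mock AGO2 peak there. With as many top mock peaks as the knockdown list holds, mock AGO2 lay at a TSS in 2 genes and 25 mock peaks lay over the windows. Without flanks, 24 Pol II domains were left. Ranked by fold, the Smr peak was number 1 in the knockdown and number 76 in mock. The fewer peaks in shorter lists and narrower definitions follow from their construction.

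No paired analysis was possible because each condition is 1 list that the authors called on pooled libraries, which also leaves no single replicate to drop. Depth is unknown, and the part of depth in any difference between the LaminB knockdown and mock lists was not tested. The annotation is a later release than the one the authors used, which bears on the number of starts.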
